A study of Homo sapiens with 36 samples.

Results

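Lysosomal genes are described here in human fibroblasts made senescent by oncogenic RAS and then exposed to digoxin or ouabain. The set holds 49 genes, given as a list of symbols and found in the gene count table through their Ensembl identifiers. All 49 were found, each under 1 identifier, among 57232 rows, all had counts, and all passed the filter on low counts that left 18696 genes for testing. The list holds 13 proteases, 10 glycosidases, 3 sulfatases, 4 lipid hydrolases, 4 lipid activator or transfer proteins, 6 lysosomal membrane proteins, 6 subunits or accessory proteins of the proton pump and 3 transcription factors.

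The cells were IMR90 ER:RAS, a fibroblast line in which 4-hydroxytamoxifen (4OHT) switches on a RAS fusion protein, here all at passage 14. RNA was sequenced from 36 libraries in 12 groups of 3. Proliferating cells had no 4OHT and received vehicle. Senescent cells had 100 nM 4OHT and received vehicle, digoxin or ouabain. Each of these 4 conditions was sampled at 16 h, at 36 h and at 36 h with a caspase inhibitor given overnight. All cells had first been grown for 6 days in medium with 10% serum, changed on day 3. Doses of either drug and of the inhibitor are absent from the labels, a single line was used, and no proliferating cells received a drug. Nor is it stated that libraries within a group are from separate cultures, and the p-values therefore reflect library-to-library spread that could be technical.

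The lysosome is the acidic compartment in which cells degrade proteins, glycans and lipids. A proton pump, the V-ATPase, acidifies it, and soluble hydrolases reach it by mannose 6-phosphate receptors or other sorting routes. The related transcription factors TFEB, TFE3 and MITF bind a motif with the core CACGTG found in many lysosomal promoters, and are controlled mainly by phosphorylation and movement into the nucleus, which RNA levels do not report. Senescent cells are known for an enlarged lysosomal compartment, and the widely used senescence-associated β-galactosidase stain reads the activity of GLB1. Digoxin and ouabain are cardiac glycosides, plant steroids that inhibit the sodium-potassium pump of the cell membrane. Digoxin carries a chain of digitoxose sugars and ouabain a rhamnose, and their steroid cores also differ in their hydroxyl groups.

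Promoter sequences were taken from RefSeq, build GRCh38.p14, as windows of 300 bases, 250 before to 50 after a transcription start. The table held 36 of the 49 genes, in 53 windows. CACGTG, which reads the same on both strands, was present for 11 of these 36 genes (30.6%), against 8.77% of the 27305 genes in the whole table. A gene was counted if any of its windows held the motif, and numbers of windows differ (8 for CD63). By window, it was present in 12 of 53, against 7.26% of all 35116 windows. The whole table also holds genes that were not tested here. The longer form TCACGTGA, which contains the first, was present for 6 genes (16.7%) against 1.18% of all genes. TGANTCA, a motif of AP-1 factors used here for comparison, was present for 3 genes (8.33%) against 9.37%. These are letter matches and not measurements of binding. The 11 genes with CACGTG were ARSB, ATP6V0D1, CD63, CLN3, CTSA, CTSD, CTSF, GAA, LAMP1, MCOLN1 and NEU1.

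The windows of 4 genes with the motif, and of GLA and NPC1, which have none in this window, are shown because these genes are among those with the largest drug changes described below, or, for LAMP1, because its window holds several copies of the motif. Each is written 5′ to 3′ on the strand of the gene, with CACGTG in capitals. LAMP1 lies at chr13:113296989-113297288 (+ strand), MCOLN1 at chr19:7522374-7522673 (+ strand), ATP6V0D1 at chr16:67481108-67481407 (- strand), NEU1 at chr6:31862772-31863071 (- strand), GLA at chrX:101407876-101408175 (- strand) and NPC1 at chr18:23586457-23586756 (- strand).
LAMP1: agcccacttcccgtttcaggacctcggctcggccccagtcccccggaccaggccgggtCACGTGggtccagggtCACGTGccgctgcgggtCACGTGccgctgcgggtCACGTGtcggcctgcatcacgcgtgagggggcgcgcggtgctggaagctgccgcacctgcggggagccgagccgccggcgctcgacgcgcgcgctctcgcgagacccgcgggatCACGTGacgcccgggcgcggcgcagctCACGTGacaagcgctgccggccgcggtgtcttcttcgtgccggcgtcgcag
MCOLN1: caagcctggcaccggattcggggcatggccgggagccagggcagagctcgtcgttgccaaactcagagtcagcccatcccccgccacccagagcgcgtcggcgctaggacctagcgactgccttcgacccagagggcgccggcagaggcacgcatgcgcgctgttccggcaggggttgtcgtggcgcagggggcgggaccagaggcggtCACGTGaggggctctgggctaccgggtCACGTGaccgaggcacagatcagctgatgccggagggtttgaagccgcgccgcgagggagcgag
ATP6V0D1: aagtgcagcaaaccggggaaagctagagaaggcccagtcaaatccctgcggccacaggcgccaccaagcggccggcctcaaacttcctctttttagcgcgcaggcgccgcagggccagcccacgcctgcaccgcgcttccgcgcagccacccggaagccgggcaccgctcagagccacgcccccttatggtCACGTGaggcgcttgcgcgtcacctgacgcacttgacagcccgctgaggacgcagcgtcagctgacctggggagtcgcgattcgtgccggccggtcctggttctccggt
NEU1: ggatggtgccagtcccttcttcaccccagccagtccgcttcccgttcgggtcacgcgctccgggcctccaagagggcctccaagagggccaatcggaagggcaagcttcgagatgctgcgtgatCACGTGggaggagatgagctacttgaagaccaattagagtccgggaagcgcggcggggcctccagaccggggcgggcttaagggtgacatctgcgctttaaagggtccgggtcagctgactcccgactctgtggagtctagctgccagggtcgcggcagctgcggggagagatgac
GLA: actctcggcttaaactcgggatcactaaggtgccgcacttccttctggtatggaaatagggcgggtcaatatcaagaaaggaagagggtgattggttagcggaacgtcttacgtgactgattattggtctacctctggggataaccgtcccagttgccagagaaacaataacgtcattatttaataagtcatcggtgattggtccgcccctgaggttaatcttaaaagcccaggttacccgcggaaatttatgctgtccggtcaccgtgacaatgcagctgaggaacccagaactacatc
NPC1: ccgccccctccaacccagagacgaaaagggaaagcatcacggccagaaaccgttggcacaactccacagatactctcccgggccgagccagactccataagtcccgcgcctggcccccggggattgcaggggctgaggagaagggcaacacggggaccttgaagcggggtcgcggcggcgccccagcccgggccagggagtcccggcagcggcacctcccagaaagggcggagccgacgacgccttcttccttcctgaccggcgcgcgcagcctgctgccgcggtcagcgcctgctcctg
The LAMP1 window held 6 copies of CACGTG, the MCOLN1 window 2, and those of ATP6V0D1 and NEU1 held 1 each.

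Library totals lay between 10854351 and 21446415 counts. The 49 genes together took 0.691% to 0.847% of all counts in the 9 proliferating libraries, 1.237% to 1.339% in the 9 senescent vehicle libraries and 1.604% to 2.022% in the 18 drug-treated libraries, and these ranges do not overlap. At 36 h CTSB, PSAP and CD63 together took 0.32% to 0.372% of counts in proliferating cells, 0.744% to 0.761% in senescent cells and 0.893% to 0.921% with digoxin. The other 46 took 0.45% to 0.475%, 0.567% to 0.577% and 0.9% to 0.921% in the same groups. Per kilobase of exon, the level of CD63 was the highest of the 49 in proliferating cells at 36 h (359 CPM per kb) and that of PSAP the highest in senescent cells (708 CPM per kb), while the median gene stood at 11.4 and 20.1 CPM per kb. CPM is the library-scaled count used throughout, with TMM factors that assume most genes do not differ between libraries. That assumption may not hold here, since 51.6% to 64.0% of all genes were called in the senescence and drug-against-vehicle comparisons below. Library 2 of the proliferating cells at 16 h and library 2 of ouabain at 16 h stood apart from the other libraries of their groups (median absolute log2 difference of 0.375 and 0.271). Library 1 of the proliferating cells at 16 h had 0.274, but each value is taken against the mean of the other 2 libraries, here including library 2. In a chi-square per gene against sampling noise, its libraries 1 and 3 differed by 7.594, 1 and 2 by 90.5 and 2 and 3 by 51.199. How the calls depend on leaving out libraries is given in the closing section. Mitochondrial rRNA took 0.775% to 1.006% of counts in proliferating libraries other than that library 2, which had 2.521%. It took 1.157% to 1.522% in senescent vehicle libraries and 1.465% to 2.426% in drug-treated libraries, so it moved with the groups, and its part in the differences below was not tested. Exons of 19 of the 49 genes overlap another counted gene, and the strand setting of the counting is not given in the sources used here. Among the genes described below these are CTSD, GLB1, IDS, MCOLN1, ATP6V0A1, NAGLU and CLN3, on the same strand, and CTSA, LIPA, PPT1, NPC1, NPC2, ASAH1, CD63, IDUA and ATP6V1A, on the other strand.

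**Figure D1:**
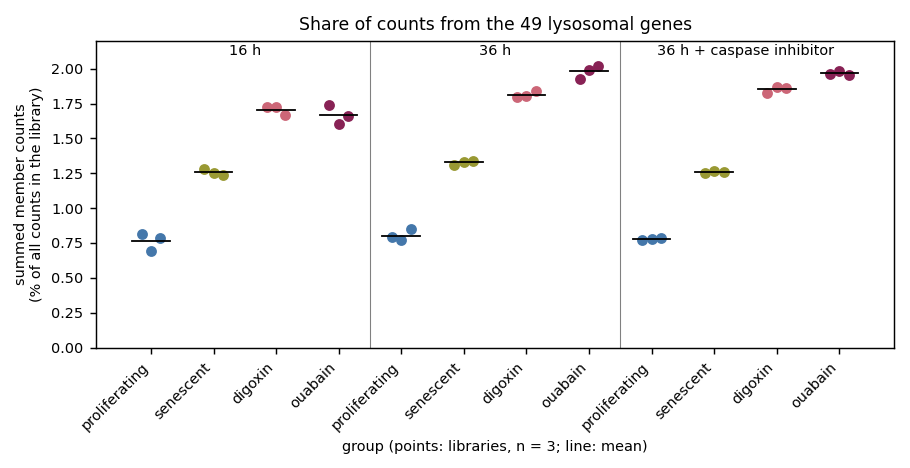
Summed counts of the 49 lysosomal genes as a percentage of all counts, one point per library and a line at the mean of each group (n = 3), by group and arm. Proliferating libraries sit at 0.691% to 0.847%, senescent vehicle libraries at 1.237% to 1.339% and drug-treated libraries at 1.604% to 2.022%.

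The first comparison asked how lysosomal genes differ between senescent and proliferating cells. At 36 h, 28 of the 49 genes were higher and 11 lower in senescent cells (edgeR quasi-likelihood test, Benjamini-Hochberg adjusted p under 0.05 over 18696 genes). Of all genes tested, 52.5% were called, 26.7% higher and 25.8% lower. The share of lower members (22.4%) is thus near that of all genes and the share of higher members (57.1%) is above it. The 49 genes were chosen with earlier results of these data known. Shares of members set beside all genes, here and below, are therefore descriptions and no test of the set. The median log2 change was 0.33 over the 49 genes and -0.01 over all genes. At 16 h, 26 were higher and 12 lower (51.6% of all genes called, 26.4% higher and 25.2% lower), and at 36 h with the inhibitor 27 were higher and 12 lower (52.3%, with 26.6% and 25.7%). The 3 arms share no library, and 26 genes were higher in all 3, 10 lower in all 3, 6 called in none, and none was called in both directions. Over all genes, calls shared by the 3 arms were not counted. That share can be no more than the lowest of a single arm, 26.4% higher and 25.2% lower. Scaling by library size alone lowers the median change of all genes in these comparisons (log2 shift of -0.11 at 16 h and -0.15 in both arms at 36 h), and the split at 36 h is then 25 higher and 15 lower (20.2% and 32.7% of all genes), at 16 h 25 and 16 (20.6% and 29.9%), and with the inhibitor 23 and 14 (19.5% and 32.4%).

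Among lipid-handling genes, NPC1, the membrane protein that moves cholesterol out of the lysosome, stood at 16.7, 16.9 and 14 CPM in proliferating cells and at 159, 167 and 169 CPM in senescent cells at 36 h. The groups are far apart, and the log2 change was 3.38 ± 0.10 (SE, n = 3 against 3, adjusted p = 1.31e-24). All 4 lipid activator or transfer proteins rose in all 3 arms: NPC1, NPC2, GM2A and PSAP. PSAP, the precursor of the saposins that help hydrolases reach sphingolipids, went from 999, 1015 and 1084 CPM to 2257, 2326 and 2302 CPM. With library size scaling all 4 were called higher at 16 h and 3 of the 4 in the arms at 36 h. Of the 4 lipid hydrolases, ASAH1 and PPT1 rose in each arm and LIPA and SMPD1 were called in none, though SMPD1 was called lower in all 3 arms with library size scaling.

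The proteases split. Of 13, 6 rose in all 3 arms (CTSA, CTSB, CTSD, CTSK, CTSL and CTSS) and 5 fell in all 3 (CTSC, CTSF, CTSH, CTSO and LGMN). CTSS, a cysteine protease best known from antigen-presenting cells, had 2.16, 2.52 and 2.68 CPM in proliferating and 37.6, 36.8 and 34.7 CPM in senescent cells at 36 h, a log2 change of 3.88 ± 0.13 (adjusted p = 4.01e-23), the largest change of any of the 49 genes in this comparison. Beside it, the summed level of 8 leukocyte and macrophage markers was 1.15 to 2.26 CPM in proliferating and 1.04 to 1.97 CPM in senescent cells at 36 h, with TYROBP at 0 in both. CTSB, a broadly expressed cysteine protease, went from 888, 824 and 911 CPM to 3162, 3242 and 3233 CPM, a log2 change of 1.88 ± 0.06 (adjusted p = 4.36e-23). CTSL, its relative, went from 102, 104 and 115 CPM to 278, 287 and 282 CPM (1.40 ± 0.11, adjusted p = 1.43e-13). CTSF, another cysteine protease, moved the other way, from 20.6, 22.1 and 21.6 CPM to 7.55, 7.45 and 7.87 CPM, a log2 change of -1.49 ± 0.12 (adjusted p = 1.65e-12). Senescence therefore came with higher levels of some cathepsins and lower levels of others, with groups that do not overlap for any of these 4.

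The 10 glycosidases also split, 3 higher in all 3 arms (GLA, GLB1 and NEU1) and 4 lower in all 3 (FUCA1, GAA, GUSB and NAGLU). NEU1, a sialidase, stood at 44.3, 41.7 and 49.9 CPM in proliferating and 138, 137 and 139 CPM in senescent cells (1.60 ± 0.07, adjusted p = 2.28e-19). GLA, the α-galactosidase lacking in Fabry disease, went from 29.7, 27.1 and 33.6 CPM to 87.6, 88.8 and 82 CPM (1.51 ± 0.10, adjusted p = 3.67e-15). GLB1 itself went from 88.7, 79.4 and 88.1 CPM to 133, 143 and 137 CPM, so that the groups do not overlap. Its log2 change was 0.62 ± 0.07 at 16 h, 0.69 ± 0.07 at 36 h and 0.70 ± 0.07 with the inhibitor (adjusted p = 2.77e-09, 1.6e-10 and 1.24e-10). FUCA1, a fucosidase, fell from 8.27, 7.35 and 9.73 CPM to 3.99, 4.32 and 5.22 CPM (-0.90 ± 0.15, adjusted p = 5.83e-06). Of the sulfatases, IDS rose and ARSA fell in all 3 arms.

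All 6 proton pump genes rose in all 3 arms, also with library size scaling. ATP6V0A1, a membrane subunit of the pump, went from 64, 61 and 50.3 CPM to 167, 171 and 176 CPM at 36 h (1.55 ± 0.10, adjusted p = 5e-16). ATP6V1H, a cytosolic subunit, changed by 0.76 ± 0.07 (adjusted p = 7.31e-11). Among the 6 membrane proteins, MCOLN1, a calcium channel of the lysosome, went from 12.4, 12.8 and 12.9 CPM to 32, 35 and 32.7 CPM (1.39 ± 0.09, adjusted p = 5.67e-15), and CD63 also rose in all 3 arms. LAMP1, the abundant glycoprotein of the lysosomal membrane, stood at 343, 324 and 361 CPM in proliferating and 372, 389 and 391 CPM in senescent cells. Its log2 change was 0.02 ± 0.07 at 16 h (adjusted p = 0.798), 0.16 ± 0.07 at 36 h (adjusted p = 0.04) and 0.04 ± 0.07 with the inhibitor (adjusted p = 0.653). The call at 36 h is lost with library size scaling (0.02), without a filter on low counts, and without senescent library 2 or 3 or without proliferating library 1 or 2 (log2 change 0.13 to 0.17), and the 16 h value is -0.08 with library size scaling. The summed level of 10 fibroblast markers was lower in senescent cells (9036 to 9134 CPM at 36 h) than in proliferating cells (16902 to 17990 CPM), and its part in these differences was not tested. In these bulk samples, fewer cells of a type and less RNA per cell cannot be told apart.

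**Figure D2:**
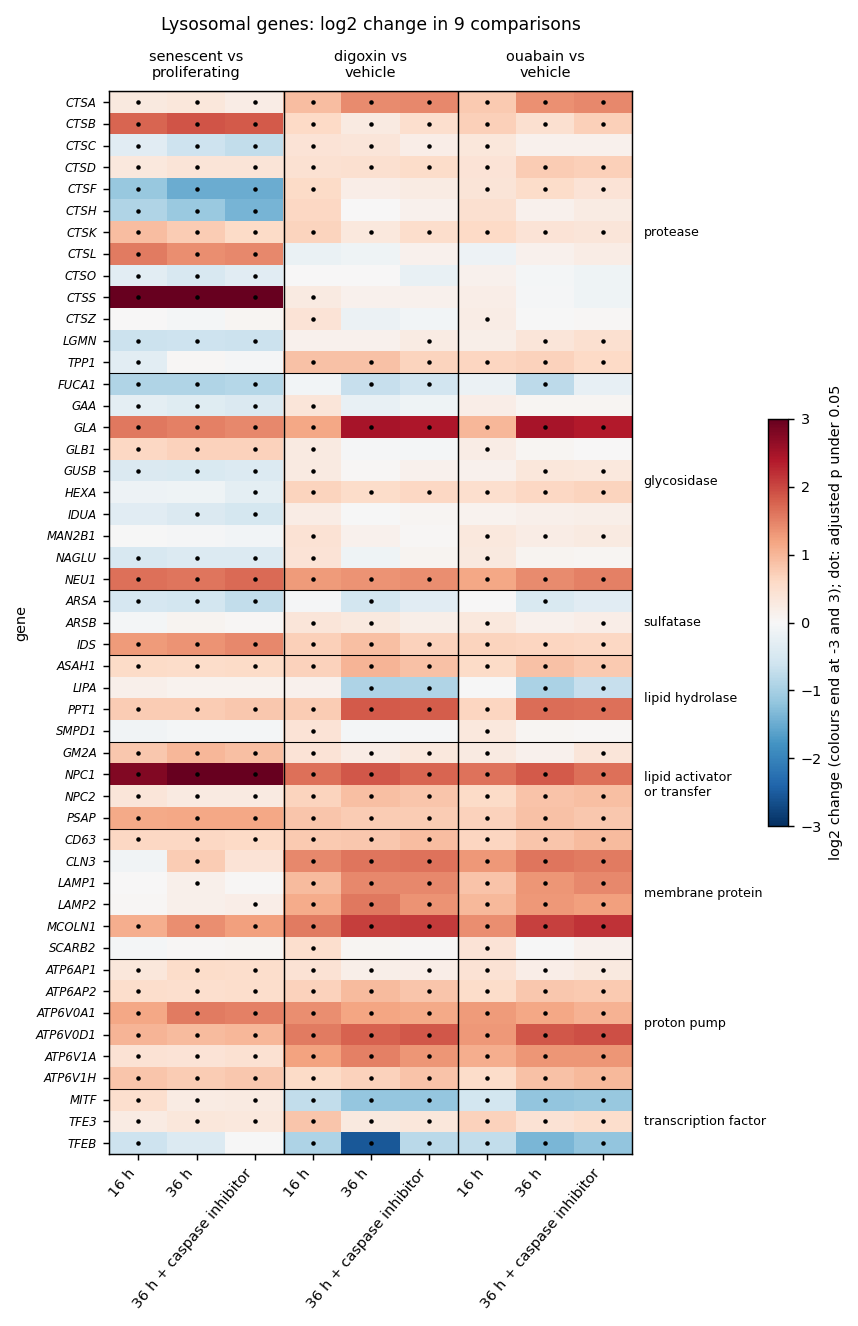
Log2 changes of the 49 lysosomal genes, grouped by role, in senescent against proliferating cells and in each drug against vehicle, each at 16 h, 36 h and 36 h with caspase inhibitor. Dots mark adjusted p under 0.05 (edgeR, 3 libraries against 3). The proton pump rows are red throughout, while proteases and glycosidases are mixed in senescence and MITF and TFEB are blue with both drugs.

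The second comparison asked what digoxin and ouabain did to the lysosomal genes of senescent cells. With digoxin at 16 h, 39 of the 49 genes were higher and 2 lower than with vehicle, against 28.3% of all genes called higher and 31.3% lower (59.6% in either direction). The median log2 change was 0.57 over the 49 genes and 0.02 over all genes. With ouabain at 16 h, 36 were higher and 2 lower, against 25.1% and 28.4% of all genes (53.4% in either direction), with a median of 0.48. The digoxin and ouabain comparisons share the vehicle libraries of each arm. Scaling by library size alone lowers the median change of all genes (log2 shift of -0.31 for digoxin and -0.28 for ouabain at 16 h), and the calls are then 25 higher and 7 lower for digoxin (15.7% and 43.9% of all genes) and 25 and 5 for ouabain (14.9% and 41.6%). Higher calls outnumbered lower ones under both scalings at 16 h.

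At 36 h with digoxin, 29 genes were higher and 5 lower, against 31.6% of all genes called higher and 32.4% lower (64.0% in either direction). With ouabain, 30 were higher and 5 lower, against 30.2% and 30.8% (61.0%). With the caspase inhibitor, digoxin gave 29 higher and 4 lower, against 30.3% and 32.1% (62.4%), and ouabain 32 higher and 3 lower, against 28.9% and 30.6% (59.5%). The median log2 change of the 49 genes at 36 h was 0.30 with digoxin and 0.44 with ouabain. With library size scaling the calls at 36 h were 21 higher and 16 lower for digoxin (22.9% and 45% of all genes) and 25 and 11 for ouabain (23.3% and 40.5%). With the inhibitor they were 24 and 12 (23.1% and 41.9%), and 25 and 9 (22.3% and 39.5%), the median of all genes shifting by -0.32, -0.23, -0.25 and -0.21. In the 3 digoxin arms, which share no library, 28 genes were higher in all, MITF and TFEB were lower in all, and CTSH, CTSL, CTSO and IDUA were called in none. In the 3 ouabain arms 28 were likewise higher in all, MITF and TFEB lower in all, and 6 were called in none. Over all genes, calls shared by 3 arms were not counted. Their share can be no more than the lowest of a single arm. That is 28.3% higher and 31.3% lower for digoxin, and 25.1% and 28.4% for ouabain. The level of the 10 fibroblast markers was 9036 to 9134 CPM with vehicle, 5335 to 5520 CPM with digoxin and 5110 to 5606 CPM with ouabain at 36 h. The 8 leukocyte and macrophage markers summed to 1.04 to 1.97 CPM with vehicle, 4.56 to 6.42 CPM with digoxin and 4.64 to 5.77 CPM with ouabain at 36 h, and with the inhibitor to 0.751 to 1.58, 6.27 to 7.66 and 7.31 to 7.63 CPM. The sums were thus higher with either drug. Of the 8 markers, 2 had no counts with digoxin at 36 h (AIF1 and TYROBP) and 1 with ouabain (AIF1), so the higher sums come from the other markers. The part of both marker lists in these results was not tested.

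**Figure D3:**
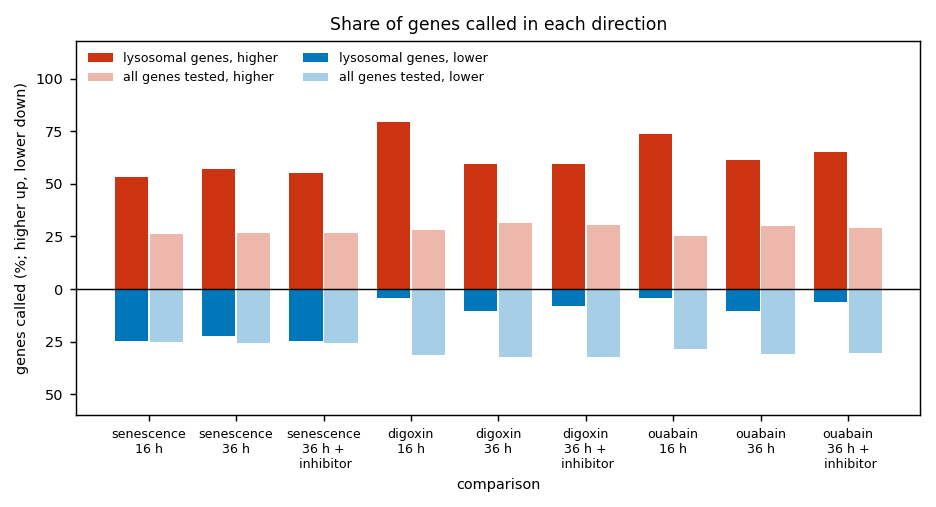
Percentage of the 49 lysosomal genes (dark bars) and of all 18696 genes tested (pale bars) called higher (upward) or lower (downward) in each comparison, edgeR adjusted p under 0.05. In the 6 drug comparisons 59.2% to 79.6% of the lysosomal genes were called higher, against 25.1% to 31.6% of all genes. The lysosomal genes were chosen with earlier results of these data known.

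All 6 membrane proteins were higher at 16 h with either drug and 5 of 6 at 36 h. MCOLN1 stood at 32, 35 and 32.7 CPM with vehicle, 136, 142 and 143 CPM with digoxin and 121, 145 and 150 CPM with ouabain at 36 h, with wide gaps to vehicle. Its log2 change with digoxin was 1.56 ± 0.09 at 16 h and 2.08 ± 0.09 at 36 h, and with ouabain 1.40 ± 0.09 and 2.06 ± 0.09 (adjusted p at most 1.57e-15). LAMP1, whose level differed little between proliferating and senescent cells, stood at 372, 389 and 391 CPM with vehicle, 1074, 1027 and 1054 CPM with digoxin and 864, 1004 and 1008 CPM with ouabain. Every drug-treated library lies above every vehicle library, and the log2 change was 1.45 ± 0.07 with digoxin and 1.32 ± 0.07 with ouabain (adjusted p = 2.46e-19 and 4.23e-18). LAMP2, the second major glycoprotein of the membrane and a receptor of chaperone-mediated autophagy, had 256, 261 and 263 CPM with vehicle and 786, 791 and 761 CPM with digoxin. CLN3, a membrane protein lacking in juvenile Batten disease, stood at 2.08, 2.58 and 2.65 CPM with vehicle and 7.39, 7.5 and 7.68 CPM with digoxin at 36 h (1.61 ± 0.14, adjusted p = 4.64e-12). SCARB2, the receptor that carries glucocerebrosidase to the lysosome, was called higher at 16 h only, and with library size scaling it was called lower at 36 h with both drugs and at 36 h with digoxin and the inhibitor.

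All 6 proton pump genes were higher in all 6 drug comparisons. ATP6V0D1, a subunit of the pump's membrane part, stood at 176, 184 and 182 CPM with vehicle, 599, 626 and 625 CPM with digoxin and 663, 660 and 657 CPM with ouabain at 36 h. The log2 change was 1.77 ± 0.08 and 1.87 ± 0.08 (adjusted p = 4.62e-20 and 1.65e-20), and no library of a drug group reached the vehicle range. ATP6V1A, the catalytic subunit, went at 16 h from 199, 206 and 209 CPM with vehicle to 457, 479 and 477 CPM with digoxin (1.20 ± 0.08, adjusted p = 9.39e-15). With library size scaling, 5 of the 6 were called higher in the 3 digoxin arms and in both ouabain arms at 36 h, and ATP6AP1, an accessory protein, was called lower with digoxin at 36 h.

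Among the soluble enzymes a few changed by large amounts. GLA stood at 87.6, 88.8 and 82 CPM with vehicle, 480, 476 and 476 CPM with digoxin and 463, 484 and 490 CPM with ouabain at 36 h, which gave the largest increases of the 49 genes at that time. The log2 change was 2.47 ± 0.10 and 2.48 ± 0.10 (adjusted p = 2.55e-21 and 3.91e-21). PPT1, which removes palmitate from proteins, went from 63.4, 61.6 and 63.2 CPM to 244, 214 and 211 CPM with digoxin (1.83 ± 0.08, adjusted p = 1.04e-19) and to 202, 201 and 197 CPM with ouabain (1.67 ± 0.08, adjusted p = 1.52e-18). NEU1 went at 16 h from 135, 135 and 134 CPM to 330, 323 and 318 CPM with digoxin (1.27 ± 0.07, adjusted p = 1.23e-16). CTSA, which forms a complex with NEU1 and GLB1, had 263, 267 and 264 CPM with vehicle and 704, 698 and 727 CPM with digoxin at 36 h. NPC1 went from 159, 167 and 169 CPM to 623, 599 and 596 CPM with digoxin (1.87 ± 0.09, adjusted p = 7.64e-19) and to 558, 608 and 624 CPM with ouabain. All 18 of its drug-treated libraries lie above all senescent vehicle libraries, as the plot by library shows.

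Several other enzymes that were higher in senescence had smaller changes with the drugs, or none that was called. CTSL stood at 278, 287 and 282 CPM with vehicle and 246, 260 and 270 CPM with digoxin at 36 h, and its log2 changes of -0.20 ± 0.10 and -0.13 ± 0.10 with digoxin were not called (adjusted p = 0.0988 and 0.289). With library size scaling both were called lower. CTSS stood at 36, 43.2 and 41.3 CPM with digoxin and 37.5, 33.9 and 34.3 CPM with ouabain at 36 h, ranges that overlap with vehicle. At 16 h it stood at 20.7, 19.4 and 18.3 CPM with vehicle and 23.5, 22 and 24.4 CPM with digoxin, without overlap. CTSS was called in none of the 3 ouabain arms, which does not hold for digoxin. GLB1 was 133, 143 and 137 CPM with vehicle, 137, 135 and 129 CPM with digoxin and 123, 153 and 151 CPM with ouabain. Its log2 change was 0.27 ± 0.07 with digoxin at 16 h (adjusted p = 0.00104) and -0.04 ± 0.07 at 36 h (adjusted p = 0.6), and with library size scaling the sign at 16 h turns and the fall at 36 h passes the test. CTSB rose with digoxin by 0.60 ± 0.06 at 16 h and 0.28 ± 0.06 at 36 h (adjusted p = 3.15e-10 and 0.000219), the second of which is -0.03 with library size scaling. CTSD, the main aspartic protease, changed by 0.45 ± 0.08 and 0.48 ± 0.08 (adjusted p = 4.95e-06 and 1.56e-06), and neither is called with library size scaling.

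LIPA, the acid lipase that frees cholesterol and fatty acids, was the clearest fall among the enzymes. It stood at 94.3, 102 and 100 CPM with vehicle, 48.1, 53.7 and 54.8 CPM with digoxin and 46.5, 54.2 and 54.8 CPM with ouabain at 36 h, with no overlap. The log2 change was -0.92 ± 0.08 with digoxin and -0.94 ± 0.08 with ouabain (adjusted p = 8.9e-13 and 7.26e-13), and -0.91 ± 0.08 and -0.70 ± 0.08 with the inhibitor. At 16 h it stood at 88.5, 90.5 and 92.9 CPM with vehicle and 102, 99.4 and 98.6 CPM with digoxin, which was not called, and with library size scaling LIPA was called lower at 16 h with both drugs.

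The 3 transcription factors went in different directions. TFE3 stood at 148, 140 and 145 CPM with vehicle and 260, 254 and 255 CPM with digoxin at 16 h (0.83 ± 0.07, adjusted p = 1.41e-12), and its log2 change at 36 h was 0.29 ± 0.07 (adjusted p = 0.00034, and -0.02 with library size scaling). MITF, at 40.2, 44.5 and 42.3 CPM with vehicle, was 18.9, 19.5 and 18.5 CPM with digoxin and 16.7, 19.4 and 19.6 CPM with ouabain, log2 changes of -1.16 ± 0.09 and -1.19 ± 0.09 (adjusted p = 1.32e-13 and 6.66e-14). Beside MITF, 4 melanocyte markers summed to no more than 2.58 CPM in any library. TFEB had few counts. Its raw counts at 36 h were 34, 27 and 34 with vehicle, 1, 8 and 2 with digoxin and 13, 10 and 6 with ouabain, and its log2 change was -2.54 ± 0.37 with digoxin (adjusted p = 3.16e-07) and -1.36 ± 0.30 with ouabain (adjusted p = 0.000221). Its call with ouabain at 16 h (-0.73 ± 0.29) is lost without ouabain library 1 or 2 or senescent library 1 or 2, and the call with digoxin and the inhibitor (-0.81 ± 0.31) without digoxin library 1 or senescent library 1 or 2. In senescence, TFE3 and MITF rose in all 3 arms (by 0.33 ± 0.07 and 0.24 ± 0.08 at 36 h), but with library size scaling the TFE3 call is lost at 16 h and the MITF call at 36 h with and without the inhibitor. The MITF call at 36 h is also lost without proliferating library 3 or senescent library 2, and with the inhibitor without senescent library 3.

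**Figure D4:**
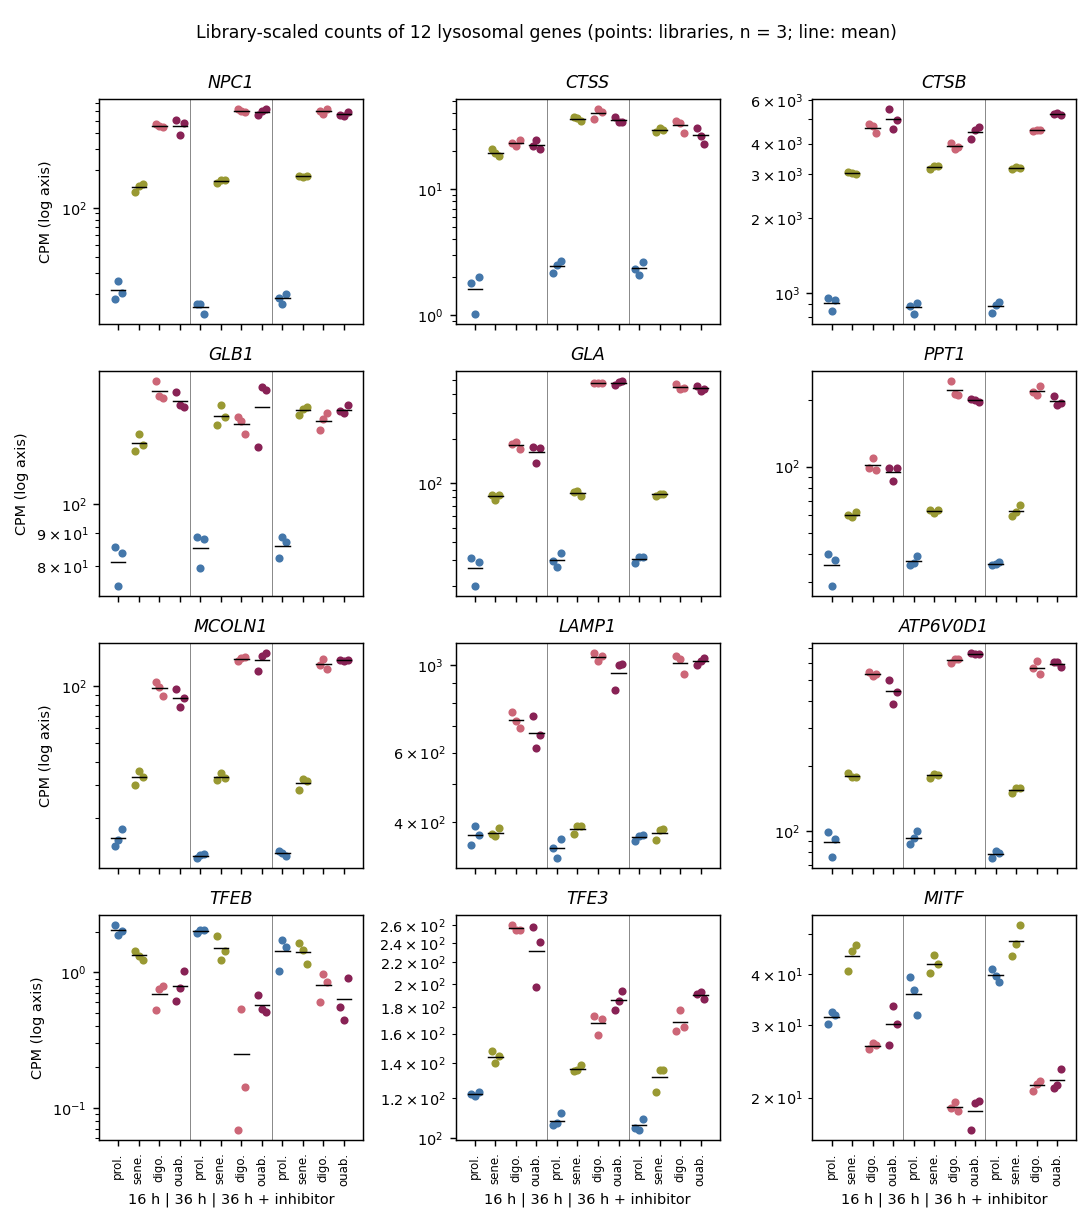
CPM on a log axis of 12 lysosomal genes in each library (points), with the mean of each group of 3 (line), in the order proliferating, senescent, digoxin and ouabain within each arm. NPC1, GLA, PPT1, MCOLN1 and ATP6V0D1 step up with senescence and again with either drug, LAMP1 steps up with the drugs, and MITF and TFEB go down with them.

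The third comparison asked how the drug effects changed between 16 h and 36 h, tested as the difference of the 2 drug-against-vehicle changes. For digoxin, 9 of the 49 genes had a higher and 14 a lower effect at 36 h, against 23.4% and 19.3% of all genes (42.7% in either direction). For ouabain, 13 were higher and 5 lower, against 18.4% and 16.7% of all genes (35.1%). GLA gained the most, by 1.30 ± 0.13 with digoxin and 1.48 ± 0.13 with ouabain (adjusted p = 8.88e-10 and 1.36e-10). At 16 h its level had been 83.2, 77.3 and 83 CPM with vehicle, 185, 190 and 171 CPM with digoxin and 176, 137 and 172 CPM with ouabain, between the vehicle level and the 36 h level. PPT1 gained 1.08 ± 0.12 and 1.03 ± 0.12 (adjusted p = 2.37e-09 and 1.29e-08). MCOLN1, LAMP1 and CTSA also gained with both drugs, by 0.47 to 0.66. LIPA went the other way, with log2 differences of -1.06 ± 0.11 for digoxin and -0.92 ± 0.11 for ouabain (adjusted p = 5.39e-10 and 1.8e-08). With digoxin, CTSZ, GAA, NAGLU and TFE3 had lower effects at 36 h, by log2 differences of -0.59 ± 0.12, -0.59 ± 0.16, -0.53 ± 0.11 and -0.53 ± 0.10, and all 4 had been called higher at 16 h. With ouabain, MITF fell further (-0.64 ± 0.12, adjusted p = 8.8e-05) and SCARB2 lost its early rise (-0.43 ± 0.08, adjusted p = 0.000126).

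**Figure D5:**
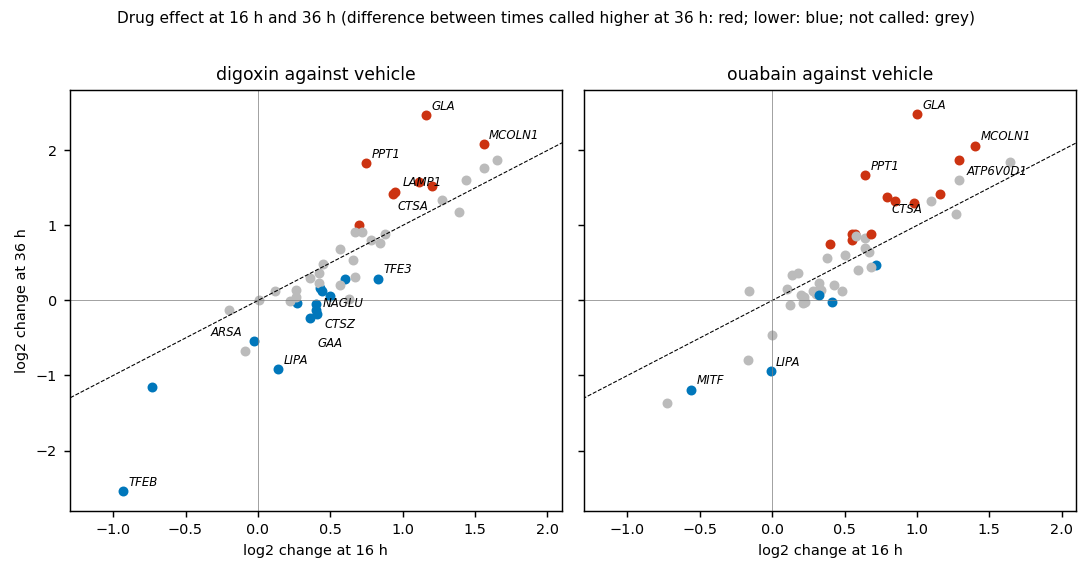
Log2 change of each of the 49 lysosomal genes against vehicle at 16 h (x axis) and 36 h (y axis) for digoxin (left) and ouabain (right), with the line of equal change dashed. Red and blue points had a drug effect that was higher or lower at 36 h (edgeR adjusted p under 0.05 for the difference), with names where that difference was at least 0.5; GLA and PPT1 lie well above the line and LIPA below it in both panels.

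Ouabain and digoxin were compared with each other at matched times, at doses that are not known to match. At 16 h, 1 of 49 genes was called, lower with ouabain, against 4.94% of all genes (3.95% higher and 0.984% lower). ATP6V0D1 stood at 544, 522 and 532 CPM with digoxin and 498, 385 and 441 CPM with ouabain (-0.27 ± 0.08, adjusted p = 0.0326). This call is lost without any 1 of the 3 digoxin libraries or without ouabain library 2 or 3. At 36 h, 3 were called, against 5.36% of all genes (1.52% higher and 3.85% lower): LAMP2 (-0.29 ± 0.07, adjusted p = 0.0144) and IDS (-0.27 ± 0.07, adjusted p = 0.0222) were lower with ouabain, and CTSD was higher (0.28 ± 0.08, adjusted p = 0.0273). All 3 calls are lost without digoxin library 1 or 2 or without ouabain library 1. Under library size scaling 10 genes were higher and 1 lower with ouabain, against 3.77% and 1.57% of all genes. With the compared groups fitted alone 7 were higher and 3 lower, against 5.14% and 8.25%. With the inhibitor none was called, against 1.45% of all genes (0.439% higher and 1.01% lower), with 6 at an unadjusted p under 0.05 and 1 called by DESeq2. The 95% interval of the ouabain minus digoxin difference lay within 0.5 of 0 on the log2 scale for 47 of the 49 genes at 16 h, 43 at 36 h and 45 with the inhibitor. For MCOLN1 it ran from -0.34 to 0.00 at 16 h and from -0.19 to 0.15 at 36 h, and for GLA from -0.36 to 0.02 and from -0.18 to 0.20. For TFEB it was wide, from 0.25 to 2.11 at 36 h.

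The caspase inhibitor was compared with none at 36 h in each condition. In proliferating cells 2 genes were higher and none lower, against 3.59% of all genes (2.75% higher and 0.834% lower), and in senescent cells 4 were higher and none lower, against 7.41% (5.27% higher and 2.14% lower). The direction in senescent cells is not stable across settings. With library size scaling 2 were higher and 5 lower, against 2.58% and 3.51% of all genes. With the compared groups fitted alone 12 were higher and 15 lower, against 18.6% and 16.9%. With digoxin none was called, against 0.877% of all genes (0.305% higher and 0.572% lower), with 12 at an unadjusted p under 0.05 and 2 called by DESeq2. With ouabain 6 were higher and 2 lower, against 8.89% (5.31% higher and 3.58% lower). IDS, which removes sulfate from heparan and dermatan sulfate, was called in 3 of the 4 conditions, at 232, 231 and 228 CPM without and 312, 295 and 297 CPM with the inhibitor in senescent cells (0.38 ± 0.07, adjusted p = 0.000819). ATP6V1A was called in the same 3, at 214, 217 and 216 CPM without and 279, 280 and 285 CPM with it (0.38 ± 0.08, adjusted p = 0.00267). In proliferating cells the calls of both genes are lost without inhibitor library 1 or 3 or without inhibitor-free library 3. LIPA with ouabain was 46.5, 54.2 and 54.8 CPM without and 67.2, 74.7 and 64.2 CPM with the inhibitor (0.41 ± 0.08, adjusted p = 0.000589). The difference in drug effect with against without the inhibitor was called for none of the 49 genes with digoxin (0.246% of all genes, 4 members at an unadjusted p under 0.05, 0 by DESeq2) or ouabain (0.15%, 3 at an unadjusted p under 0.05, 0 by DESeq2).

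Set beside the promoter windows above, the drug changes differed in size between genes with and without CACGTG, which is given as a description. With digoxin at 16 h, 11 of 11 genes with the motif were called higher, with a median log2 change of 0.93, against 18 of 25 without it (median 0.43). Of all genes 28.3% were higher. At 36 h the higher calls were 9 of 11 (median 1.34) and 12 of 25 (median 0.12), against 31.6% of all genes. With ouabain at 36 h the higher calls were 9 of 11 (1.32) and 12 of 25 (0.15), against 30.2%. In senescence at 36 h the higher calls were 8 of 11 (0.38) and 13 of 25 (0.24), against 26.7%. Lower calls, with and without the motif, were 0 and 2 with digoxin at 16 h and 0 and 4 with either drug at 36 h. In senescence at 36 h they were 2 and 5. The split was not made for all genes, nor with library size scaling. For the 13 genes not in the promoter table, 10 were higher with digoxin at 16 h (median 0.60) and 8 at 36 h (0.31). GLA, NPC1, PPT1 and ATP6V0A1, which changed by large amounts with the drugs, have no CACGTG in these windows.

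Other genes of the lysosome and its control were taken from 8 lists of 110 genes, whose counts with digoxin stand against 28.3% of all genes called higher and 31.3% lower at 16 h, and 31.6% and 32.4% at 36 h. Of 12 further proton pump subunits, 9 were higher and 1 lower in senescence at 36 h, against 26.7% and 25.8% of all genes. With digoxin at 16 h, 9 were higher and 2 lower, led by ATP6V1C1 (2.45 ± 0.10) and ATP6V1B2 (2.17 ± 0.09), both cytosolic subunits. TCIRG1, an osteoclast subunit of the pump, was lower (-0.67 ± 0.14 at 36 h). Of 21 further hydrolases tested, 14 were higher and 2 lower with digoxin at 16 h and 8 and 6 at 36 h, the latter near the shares of all genes. HYAL2, a hyaluronidase, changed by -1.34 ± 0.14 at 36 h. With library size scaling the hydrolases were 4 higher and 11 lower at 36 h. Of 18 further membrane proteins, 4 were lower at 16 h and 10 higher, among them SLC36A1, a proton-coupled amino acid carrier (1.89 ± 0.13), and GPNMB (1.02 ± 0.09). With library size scaling 8 were higher and 8 lower, against 15.7% and 43.9% of all genes.

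Genes that control TFEB and mTORC1 at the lysosome moved with digoxin in both directions, 14 of 21 higher and 4 lower at 16 h and 10 higher and 7 lower at 36 h (9 and 9 with library size scaling). FLCN and its partner FNIP1, which act on the Rag GTPases, changed by 2.66 ± 0.10 and 2.56 ± 0.15 at 16 h and by 2.28 ± 0.10 and 2.03 ± 0.15 at 36 h. At 36 h RRAGC, one of the Rag GTPases, was higher (2.41 ± 0.09) and RRAGA, another, lower (-1.32 ± 0.09). MTOR, the kinase itself, was lower (-1.05 ± 0.15 at 16 h and -1.53 ± 0.15 at 36 h). In enzyme delivery, 7 of 10 genes were higher and 1 lower at 16 h, with M6PR, the cation-dependent mannose 6-phosphate receptor, at 2.11 ± 0.10. In fusion and movement, 4 of 10 were higher and 4 lower at 16 h, with RAB7A, the late endosomal GTPase, at 1.98 ± 0.10 and VPS18 at -0.77 ± 0.08. In the response to lysosomal damage, 5 of 11 were higher and 2 lower at 16 h. YOD1, a deubiquitinase, and LGALS8, a galectin that marks broken membranes, changed by 2.44 ± 0.12 and 1.59 ± 0.09, while TRIM16, a partner of galectin-3, changed by -3.15 ± 0.26. Both tested cathepsin inhibitors, CST3 and CSTB, were higher at 16 h, by 0.29 ± 0.10 and 0.36 ± 0.10, and neither is called with library size scaling. The CST3 call is also lost without digoxin library 1 or senescent library 2 or 3. With library size scaling the calls with digoxin at 16 h were 10 higher and 6 lower for the control of mTORC1 and TFEB, and 3 and 3 for delivery. They were 2 and 6 for fusion and movement, 3 and 4 for damage, 5 and 4 for the further hydrolases and 6 and 2 for the further pump subunits. Lower calls outnumbered higher ones for fusion and damage under this scaling, as they did among all genes (15.7% higher and 43.9% lower). All values of this and the preceding paragraph are log2 changes with SE, from the same edgeR fit.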

How the data were processed

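The authors deposited a table of raw read counts per gene for 36 libraries of mRNA, made with a stranded kit per the labels' protocols. Per the submitters' processing notes, TopHat2 2.0.11, hg19 and featureCounts were used; no version, strand setting or annotation is given for featureCounts in the sources used here. The deposited counts were analysed as they are. Symbols were matched by Ensembl identifier, and exon lengths and overlaps came from GENCODE on GRCh38. Samples were grouped by the labels, no column was left unused (0), and library totals of 10854351 to 21446415 counts limit the precision for genes with few counts, such as TFEB.

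Genes with low counts were removed by edgeR's filter by group. One quasi-likelihood model with 12 group means was fitted to all 36 libraries (edgeR 4.0.16, limma 3.58.1, R 4.3.3, TMM scaling), with 16 pairwise comparisons and 4 differences of differences. P-values were adjusted by Benjamini-Hochberg over 18696 genes, with a threshold of 0.05. The SE is the absolute log2 change divided by the square root of F. The scripts were tested on simulated data in which few genes differed, in 1 group only. That setting is unlike these data and does not bear on the choice of scaling. Alternatives were DESeq2 1.42.0, other scalings, no filter on low counts, a replicate block, the compared groups alone, and leaving out libraries.

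The 49 genes and the other lists were chosen with earlier results of these data known. Log2 changes are named for a panel of 11 genes (TFEB, TFE3, MITF, LAMP1, GLB1, NPC1, CTSB, CTSL, CTSD, MCOLN1 and ATP6V1H) in the senescence and drug comparisons. In each comparison they are also named for up to 6 genes per direction with the largest called change, provided that the groups' libraries did not overlap and the higher group reached 5 CPM, and for up to 3 per direction of each other list.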

Additional observations from a re-analysis of the deposited data

Results flagged for a closer look

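The effect of a drug against vehicle differed between 16 h and 36 h for the genes below, by an interaction term in the edgeR fit (adjusted p under 0.05, 3 libraries per group); values are the log2 change at 36 h minus that at 16 h. With digoxin the effect was higher at 36 h for GLA (1.30), PPT1 (1.08), MCOLN1 (0.51), CTSA (0.50), LAMP1 (0.50) and LAMP2 (0.47). It was lower for LIPA (-1.06), CTSZ (-0.59), GAA (-0.59), NAGLU (-0.53), TFE3 (-0.53) and ARSA (-0.51). The ARSA call is lost with either other scaling, with no filter on low counts and with DESeq2, and without any 1 of 9 libraries. With ouabain it was higher for GLA (1.48), PPT1 (1.03), MCOLN1 (0.66), CTSA (0.60), ATP6V0D1 (0.58) and LAMP1 (0.47). It was lower for LIPA (-0.92), MITF (-0.64), SCARB2 (-0.43), SMPD1 (-0.25) and CTSB (-0.25). The digoxin and ouabain differences share the vehicle libraries.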

How the results depend on the processing

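In the 9 comparisons of senescence and of drug with vehicle, the number of lysosomal genes called in either direction stayed within 1.5 times of the main count under every alternative run. The split by direction was less stable. With library size scaling fewer were higher and more were lower in each of the 9, as given above. Leaving out 1 library gave 34 to 37 calls in senescence at 16 h and 31 to 35 with digoxin at 36 h. The small counts of the other comparisons moved more in total. Ouabain against digoxin at 16 h (1 call) gave 0 with no filter, with the compared groups alone and without both deviating libraries, 2 with DESeq2, and 0 to 3 leaving out 1 library. At 36 h (3) it gave 11 with library size scaling (10 higher), 10 with the groups alone (7 higher) and 0 to 3 leaving out 1 library. With the inhibitor (0) it gave 1 with library size scaling, 1 with the groups alone and 1 with DESeq2. The inhibitor in proliferating cells (2) gave 4 with library size scaling, 1 with no filter, 8 with DESeq2 and 0 to 4 leaving out 1 library. In senescent cells (4, all higher) it gave 7 (5 lower), 2 and 7 under the same settings, 27 with the groups alone (15 lower) and 2 to 3 leaving out 1 library. With digoxin (0) it gave 1 with library size scaling, 3 with the groups alone, 2 with DESeq2 and 0 to 1 leaving out 1 library, and with ouabain (8) 4 to 10 leaving out 1 library. With the groups alone, the inhibitor's change of the drug effect gave 3 calls for digoxin and 1 for ouabain (both 0). The change of the ouabain effect with time (18) gave 9 with no filter. The share of all genes called moved with the settings too. For the inhibitor in senescent cells with the groups alone, 18.6% were higher and 16.9% lower. For the inhibitor in proliferating cells with DESeq2, 10.1% were higher and 2.47% lower. The causes were not tested.

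Signs turned with library size scaling for CST3 (-0.03) and GLB1 (-0.05) with digoxin at 16 h, CTSB (-0.03) and TFE3 (-0.02) with digoxin at 36 h, CTSL with digoxin and inhibitor (-0.12) and with ouabain at 36 h (-0.11), GLB1 with ouabain at 16 h (-0.07), 36 h (-0.18) and 36 h with inhibitor (-0.21), and LAMP1 in senescence at 16 h (-0.08) and with inhibitor (-0.11). They also turned for LAMP1 at 16 h (-0.01) and GLB1 with digoxin and inhibitor (0.01) with the groups alone, and for GLB1 with ouabain at 36 h with no filter (-0.03). Leaving out 1 library, GLB1 with ouabain ran from -0.01 to 0.14 at 36 h and from -0.01 to 0.01 with inhibitor, LAMP1 in senescence at 16 h from -0.01 to 0.06 and TFEB in senescence with inhibitor from -0.23 to 0.19. Equal replicate numbers did not pair libraries (correlation of deviations -0.068 to 0.26 over 48 pairs, 3 above 0.1). With the replicate block the calls were 39 in senescence at 16 h (38 without it), 32 with digoxin and inhibitor (33), 3 for the inhibitor in senescent cells (4) and 17 for the ouabain effect with time (18), and the counts of the other comparisons were equal. Counting depth limits TFEB, CTSH and CLN3.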
